A study of Mus musculus with 24 samples.

Results

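The comparison set 3 arrays of 3T3-L1 cells at day 6 of adipocyte differentiation against 3 arrays at day 2, out of 24 arrays over 8 days of one course. 3T3-L1, written NIH 3T3 L1 in the labels, is a mouse fibroblast line that turns into fat-storing adipocytes in culture, and it is a single line with no tissue around it. Day 6 was labelled maturating and day 2 differentiating. The day 2 cells had a differentiation medium with IBMX, which blocks the breakdown of cyclic AMP, insulin, and dexamethasone, a synthetic glucocorticoid. The day 6 cells had the same medium named and a later maturation medium with insulin, so the time and the medium changed together and cannot be told apart. RNA was labelled as cRNA and hybridised to Illumina beadchips. All 9558 genes with a detected probe enter the comparison, and the 41 gene lists behind it hold 832 of them.

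Growth-arrested 3T3-L1 cells that receive the inducing mixture re-enter the cell cycle, divide for a short while in what is called mitotic clonal expansion, leave the cycle again and then switch on the genes of the fat cell. C/EBPβ acts early in this sequence and is followed by PPARγ and C/EBPα, which hold the adipocyte state and drive the genes of lipid synthesis, storage and insulin-stimulated glucose uptake. The question here was how far the cells had moved by day 6 from a state near that division phase, across an interval that leaves out day 4.

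Of the 9558 genes tested, 2250 (23.5%) were higher and 2622 (27.4%) lower on day 6 at an adjusted p under 0.05 in limma, so that 51.0% of all genes passed in one direction or the other. At least 2-fold changes were called for 780 genes upward (8.16%) and 760 downward (7.95%), and the median difference of all genes was -0.03 on the log2 scale. The day 6 and day 2 arrays did not overlap for 5418 genes (56.7%). The gene lists are read against these shares. Between 45.5% and 47.6% of probes were detected per array on these 6 arrays, and the correlation across genes was 0.986 to 0.996 within a day and 0.920 to 0.930 between the days. No source used here says that the replicates were separate cultures, so the p-values measure the spread between these samples, which may be technical. All levels are log2 intensities after normalization, with a floor that undetected probes share, which compresses any difference that reaches it. For a probe that none of the 3 arrays of a day detected, the text gives a lower bound, which sets the brighter day against the higher of the dim probe's own signal and the lowest signal of a detected probe.

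**Figure D1:**
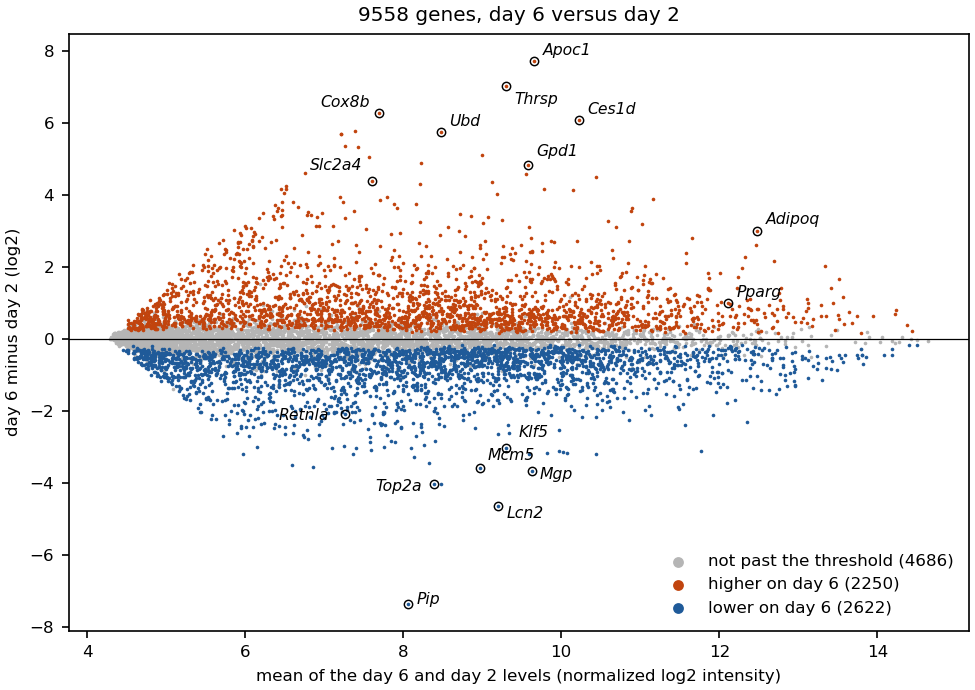
Each point is 1 of the 9558 genes, with the mean of its day 6 and day 2 levels (normalized log2 intensity) across and the day 6 minus day 2 difference (log2) up the page. Orange points are the 2250 genes called higher on day 6, blue points the 2622 called lower and grey points the 4686 that did not pass. Apoc1 and Thrsp lie at the top and Pip at the bottom.

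The genes that define each state went in the direction from dividing to differentiated cells. All 17 adipocyte markers tested rose, with a median difference of 1.96, and their summed intensity was 89260, 93350 and 93440 on the day 6 arrays, against 29260, 27400 and 26380 on the day 2 arrays. Of 24 mitosis genes 23 fell, with a median of -2.13 and a summed intensity of 3252, 3162 and 2997 on day 6, against 13610, 13800 and 13360 on day 2. The same 17 markers were not silent at the earlier time and had not finished at the later one: relative to day 2 their median was -1.17 on day 0, 1.96 on day 6 and 2.85 on day 18. In bulk RNA fewer cells of a kind and less RNA per cell cannot be told apart.

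Transcripts for chromosome segregation and mitotic entry were lower on day 6 nearly throughout. Top2a, the topoisomerase that untangles sister chromatids (chr11:98992947-99024199), stood at 6.68, 6.12 and 6.31 on the day 6 arrays, against 10.63, 10.30 and 10.31 on the day 2 arrays. The groups lay far apart, and Top2a fell by 4.04 ± 0.19 on the log2 scale (SE; adjusted p = 3.52e-13), which is 16.5-fold. Nusap1, which bundles spindle microtubules, fell by 3.44 ± 0.17, and Aurka, the kinase of the spindle poles, by 3.07 ± 0.17. Plk1, the polo-like kinase of mitotic entry, was at 6.38, 6.53 and 6.37 on day 6, against 9.26, 9.25 and 9.26 on day 2. Cdc20, the activator of the anaphase-promoting complex, was at 6.96, 7.10 and 6.90 on day 6, against 9.79, 9.84 and 9.85 on day 2. Neither gene had any overlap between the days, with differences of -2.83 ± 0.09 for Plk1 and -2.84 ± 0.10 for Cdc20. Kif15, a spindle motor outside the list, was detected on all 3 day 2 arrays and on no day 6 array and was at least 4.94-fold lower. Birc5, the survivin subunit of the chromosomal passenger complex, fell by 2.94 ± 0.12. The exception was Anln, the scaffold of the contractile ring, at 9.48, 9.41 and 9.31 on day 6, against 9.39, 9.12 and 9.04 on day 2, where the arrays overlapped and the adjusted p was 0.101. With the replicate number as a block the same difference of 0.22 had an adjusted p of 0.0115, and without day 2 replicate 1 the difference was 0.32 with an adjusted p of 0.022. Mki67 and Ccnb1 were not analysed here.

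All 32 genes of DNA replication and nucleotide supply fell, with a median of -1.96 and 26 of them at least 2-fold lower. Mcm5, a subunit of the replicative helicase (chr8:75109468-75128439), was the steepest: 7.15, 7.19 and 7.17 on day 6, against 10.72, 10.79 and 10.79 on day 2, a difference of -3.60 ± 0.09 (SE; adjusted p = 1.78e-17), or 12.1-fold. The replicates of each day nearly coincided. Tk1, the cytosolic thymidine kinase, fell by 2.87 ± 0.13. Mcm6, another helicase subunit, fell by 2.70 ± 0.13, and Rrm2, the regulated subunit of ribonucleotide reductase, fell by 2.54 ± 0.14. Uhrf1, which recruits maintenance DNA methylation to replicated DNA, fell by 2.65 ± 0.21. The smallest fall of the list was Pold2, an accessory subunit of DNA polymerase delta, at -0.27, and its call was lost without day 6 replicate 2 (adjusted p = 0.0995) and with only days 2 and 6 in the fit (adjusted p = 0.0583). The list thus moved in one direction over a wide span of sizes.

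Promoters of these cell cycle genes carry letter patterns that the fall can be set beside. Those of 2 mitotic and 2 replication genes are shown as examples that hold the patterns. Top2a and Mcm5 had the steepest falls of their lists, whereas other members fell more than Plk1 and Mcm6. RefSeq promoters of build GRCm38.p6, each a window of 300 bases around a gene's start, most of it upstream, were found for 18 of the 23 fallen mitosis genes. The CHR, spelled TTTGAA or TTCGAA and read on both strands, was in 15 of the 18 (83.3%), against 5254 of all 27025 promoters (19.4%). The CCAAT box, spelled CCAAT, was in 13 of the 18 (72.2%), against 37.9% of all promoters. For Top2a and Plk1 the capitals mark CHR and CCAAT letters on either strand, of which Top2a holds 4 and 6.
Top2a, chr11:99024140-99024439, minus strand: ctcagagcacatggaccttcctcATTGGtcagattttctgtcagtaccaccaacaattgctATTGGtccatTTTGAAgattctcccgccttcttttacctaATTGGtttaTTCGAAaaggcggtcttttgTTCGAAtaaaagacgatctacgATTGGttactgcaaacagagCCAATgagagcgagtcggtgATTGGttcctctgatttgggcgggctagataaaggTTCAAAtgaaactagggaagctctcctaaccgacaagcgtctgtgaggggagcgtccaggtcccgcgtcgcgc
Plk1, chr7:122159185-122159484, plus strand: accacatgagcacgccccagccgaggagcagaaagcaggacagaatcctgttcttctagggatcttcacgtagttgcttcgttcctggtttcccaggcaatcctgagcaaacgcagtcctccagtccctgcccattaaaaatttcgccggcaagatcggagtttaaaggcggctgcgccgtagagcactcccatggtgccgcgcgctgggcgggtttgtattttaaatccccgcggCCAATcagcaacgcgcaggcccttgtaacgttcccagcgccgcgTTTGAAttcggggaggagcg
Patterns of the E2F type, spelled TTTCCCGC, TTTGGCGC or TTTCGCGC on either strand, were in 8 of the 27 promoters found for the 32 replication genes (29.6%), against 515 of all promoters (1.91%). For Mcm5 and Mcm6 the capitals mark these E2F letters, of which Mcm5 holds 2 that overlap and Mcm6 holds 3. The 12 promoters found for the adipocyte markers held no exact direct repeat of the PPARγ response element on either strand, which is in 0.0444% of all promoters. A match describes letters in a window and is neither a measured site nor a cause.
Mcm5, chr8:75109259-75109558, plus strand: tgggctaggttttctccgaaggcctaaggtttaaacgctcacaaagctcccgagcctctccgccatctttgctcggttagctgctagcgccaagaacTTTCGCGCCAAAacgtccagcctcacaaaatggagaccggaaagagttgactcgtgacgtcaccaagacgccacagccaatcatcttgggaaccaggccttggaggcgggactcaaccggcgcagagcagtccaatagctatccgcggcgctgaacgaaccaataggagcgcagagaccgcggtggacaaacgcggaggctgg
Mcm6, chr1:128359656-128359955, minus strand: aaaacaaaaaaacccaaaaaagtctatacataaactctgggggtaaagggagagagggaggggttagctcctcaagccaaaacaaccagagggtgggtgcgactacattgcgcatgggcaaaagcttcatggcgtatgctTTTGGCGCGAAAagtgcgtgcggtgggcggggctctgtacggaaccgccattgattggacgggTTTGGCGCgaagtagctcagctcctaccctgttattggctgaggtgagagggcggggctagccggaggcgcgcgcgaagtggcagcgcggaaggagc

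The regulators that gate the cycle in G1 changed far less uniformly, with 2 of 20 higher, 8 lower and 10 not past the threshold, and a median of -0.17. Ccnd1, the cyclin that answers to growth factors, was at 10.19, 10.00 and 10.01 on day 6, against 11.97, 12.06 and 12.12 on day 2, a difference of -1.98 ± 0.09. The groups were well separated. Myc, which drives growth and ribosome production, fell by 1.34 ± 0.18, and E2f2 and E2f1, activators of S-phase genes, by 1.44 and 0.75. Both members that rose are brakes on the cycle: Cdkn2c, an inhibitor of CDK4 and CDK6, by 1.74 ± 0.10, and Rb1, the retinoblastoma protein, by 1.43 ± 0.15. Cdkn1a, the p21 inhibitor, did not pass, at 11.44, 11.63 and 11.34 on day 6, against 11.18, 11.35 and 11.34 on day 2 (adjusted p = 0.158), and averaging its probes gave 0.31 with an adjusted p of 0.00968. Cdkn1b, the p27 inhibitor, was at 5.89, 5.03 and 4.72 on day 6, against 6.87, 5.22 and 4.65 on day 2, with detection on 2 of 3 arrays each day. Its spread between replicates exceeded the difference of -0.37 (adjusted p = 0.663), and with the replicate number as a block the same difference had an adjusted p of 0.0372.

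Genes of ribosome production fell along with those of the cell cycle. In the ribosome biogenesis list 21 of 22 genes were lower, with a median of -1.28, and in the list of cytosolic ribosomal proteins 29 of 36 were lower and 1 higher, with a median of -0.66. Nop56, a core protein of the snoRNPs that methylate ribosomal RNA, was at 8.95, 8.80 and 8.70 on day 6, against 11.22, 10.93 and 10.62 on day 2, and fell by 2.11 ± 0.21. Nop58, its partner, fell by 2.02, and Ncl, the nucleolar protein nucleolin, by 1.89 ± 0.20. The ribosomal protein with the steepest fall was Rplp0, at -2.40 ± 0.14, while Rpsa rose by 0.54 ± 0.17 with detection on 2 of 3 day 2 arrays. Its adjusted p was 0.0129, and 0.0692 without day 6 replicate 2 and 0.0565 without day 2 replicate 3. Copies of many ribosomal protein genes occur across the genome, so probes of this family may read more than 1 locus. Proteasome subunits were lower for 11 of 28 and higher for 1, Psmb7, with a median of -0.22. Psmb7 was higher by 0.32, and averaging its probes gave 0.18 with an adjusted p of 0.143.

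**Figure D2:**
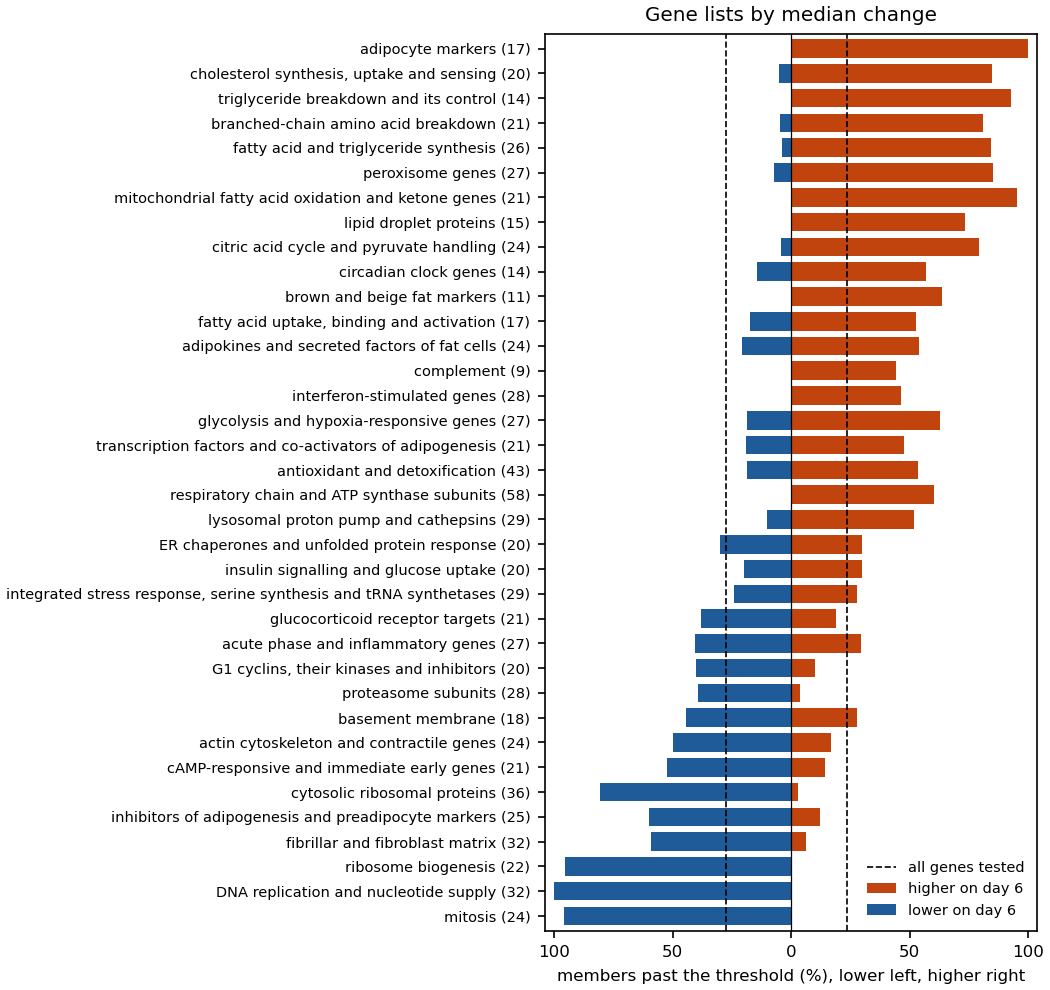
Each bar is a gene list with the number of genes tested in brackets, ordered by the median day 6 minus day 2 difference, from the highest at the top to the lowest at the bottom. Bars to the right give the percent of members called higher on day 6 and bars to the left the percent called lower. The dashed lines mark the shares among all 9558 genes, 23.5% higher and 27.4% lower.

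Adipocyte identity genes rose without exception among the 17 tested, 15 of them at least 2-fold, although single probes differed widely in how well they were measured. Adipoq, the hormone adiponectin (chr16:23146536-23157968), was at 13.86, 14.01 and 14.07 on day 6, against 10.869, 11.056 and 11.0004 on day 2, a rise of 3.01 ± 0.11 or 8.04-fold (adjusted p = 1.65e-14). Slc2a4, the insulin-responsive glucose transporter GLUT4, was at 9.68, 9.76 and 9.97 on day 6, against 5.33, 5.41 and 5.49 on day 2, a rise of 4.39 ± 0.12. Both sets of arrays were tight and far apart. Thrsp, a lipogenic nuclear protein, rose most of all markers, with 12.96, 12.65 and 12.86 on day 6, against 6.07, 5.36 and 5.92 on day 2, a difference of 7.04 ± 0.16. Fabp4, the fatty acid binding protein of fat cells, was detected on all 3 day 6 arrays and on no day 2 array and was at least 5.35-fold higher. Aqp7, the glycerol channel, was at least 13.3-fold higher on the same terms. Leptin (Lep) and resistin (Retn), hormones of mature fat, were at low levels on both days and rose by 1.29 ± 0.16 and 1.14 ± 0.19, each detected on 2 of 3 day 2 arrays. Cd36, the fatty acid translocase, was at 5.05, 5.72 and 5.13 on day 6 and undetected on day 2, at least 1.39-fold higher with an adjusted p of 0.035. That call was lost without day 6 replicate 2 (adjusted p = 0.154) and without day 2 replicate 1, 2 or 3 (adjusted p = 0.0668, 0.0522 and 0.0968). It was also lost without background correction (0.26 on the log2 scale, adjusted p = 0.172, against 0.85) and with an offset of 50 (0.40, adjusted p = 0.159). The same held on the authors' normalized table with values floored at 16 (0.67, adjusted p = 0.225) and without the detection filter (adjusted p = 0.0633).

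The transcription factors of adipogenesis moved in both directions, with 10 of 21 higher, 4 lower and 7 not past the threshold. Pparg, the nuclear receptor that drives the adipocyte programme, was at 12.77, 12.47 and 12.60 on day 6, against 11.73, 11.55 and 11.57 on day 2, a rise of 1.00 ± 0.11 or 2.00-fold. Cebpa was at 8.81, 8.40 and 8.96 on day 6, against 7.65, 7.47 and 7.61 on day 2, a rise of 1.15 ± 0.16. Neither gene had overlapping groups, and both were already detected on all day 2 arrays. Larger rises came from factors that act on lipid genes: Rxrg, a partner receptor of PPARγ, was at least 6.61-fold higher, Mlxipl, the glucose-sensing factor ChREBP, rose by 2.72 ± 0.14 and was detected on 1 of 3 day 2 arrays, and Nr1h3, the oxysterol receptor LXRα, rose by 2.10 ± 0.09. Klf15, which rises late in adipogenesis, rose by 2.49 ± 0.27, also from detection on 1 of 3 day 2 arrays. The factors of the early phase went the other way. Cebpb was at 11.99, 11.83 and 12.06 on day 6, against 12.98, 12.97 and 13.05 on day 2, a difference of -1.04 ± 0.09. Klf5, which acts between C/EBPβ and PPARγ, was at 8.00, 7.75 and 7.65 on day 6, against 10.90, 10.71 and 10.84 on day 2, a difference of -3.02 ± 0.15 or 8.09-fold. The other lower members were Klf4, at -0.66, and Med1, a Mediator subunit, at -0.72. The call of Klf4 was lost without day 6 replicate 1 or 3 (adjusted p = 0.0688 and 0.0738) and without day 2 replicate 2 (adjusted p = 0.0977). The call of Med1 was lost without day 6 replicate 1 (adjusted p = 0.113) and without day 2 replicate 2 or 3 (adjusted p = 0.0508 and 0.0641). Cebpd was not analysed here.

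Inhibitors of adipogenesis and markers of the precursor cell were lower for 15 of 25 genes, higher for 3 and not past the threshold for 7, with a median of -0.66. Dlk1, the preadipocyte factor Pref-1, was at 10.92, 10.62 and 10.95 on day 6, against 12.31, 12.37 and 12.45 on day 2, a difference of -1.54 ± 0.13. Pdgfra, the growth factor receptor of adipocyte precursors, fell by 1.64 ± 0.10, Twist2, a repressive bHLH factor of mesenchyme, by 1.62 ± 0.07, and Egr2, a zinc finger factor of the early response, by 2.03 ± 0.25. Egr2 is also known to favour early adipogenesis in these cells. The members that rose were Ddit3, which encodes CHOP, a stress-induced relative of the C/EBP factors, by 2.66 ± 0.16, Wnt5a, a secreted Wnt ligand, by 1.11 ± 0.23, and Gata3, a GATA factor that holds back PPARγ, by 0.65.

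**Figure D3:**
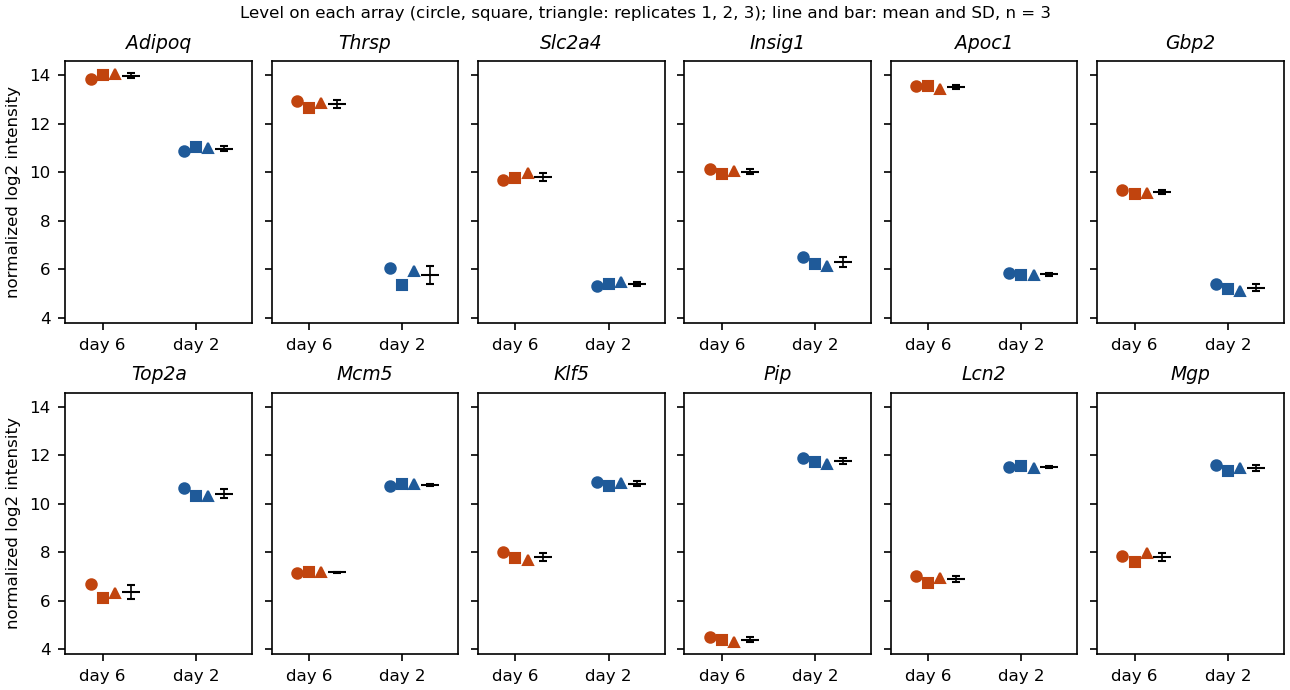
Normalized log2 intensity of 12 genes on each of the 3 day 6 arrays (orange, left in each panel) and the 3 day 2 arrays (blue, right), with circles, squares and triangles for replicates 1, 2 and 3 and a line with a bar for the mean and SD (n = 3). In the upper row every day 6 array lies above every day 2 array, and in the lower row every day 6 array lies below.

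Fatty acid and triglyceride synthesis rose for 22 of 26 genes, with 1 lower and a median of 1.35. Gpd1, which makes the glycerol phosphate backbone, was at 12.05, 11.78 and 12.16 on day 6, against 7.21, 7.02 and 7.24 on day 2, a rise of 4.84 ± 0.16 or 28.6-fold. Fads2, the delta-6 desaturase, was at 8.57, 8.43 and 8.52 on day 6, against 5.30, 5.30 and 5.47 on day 2, a rise of 3.15 ± 0.18. These groups stood apart by many times their own spread. Acss2, which makes acetyl-CoA from acetate, and Slc25a1, the mitochondrial citrate carrier, rose by 2.81 ± 0.12 and 2.72. The member that fell was Elovl6, the elongase of saturated fatty acids, at 6.31, 5.89 and 5.88 on day 6, against 7.09, 6.81 and 6.95 on day 2 (-0.92 ± 0.15).

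Genes that break triglyceride down rose alongside those that make it, with 13 of 14 higher, 0 lower and a median of 1.69. Ces1d, a carboxylesterase of the lipid droplet also known as triacylglycerol hydrolase (chr8:93166072-93197804), was at 13.32, 13.26 and 13.21 on day 6, against 7.20, 7.30 and 7.06 on day 2, a rise of 6.08 ± 0.09 or 67.6-fold (adjusted p = 2.14e-20). Hcar2, the receptor through which ketone bodies and niacin restrain lipolysis, rose by 3.37 ± 0.11, and Mgll, the monoglyceride lipase, by 2.06 ± 0.11. The list thus held enzymes and a brake that rose together. Lipid droplet proteins were higher for 11 of 15 genes and lower for 0, with a median of 0.86. Among them Cidec, which fuses droplets into large ones, was at 13.61, 13.81 and 13.86 on day 6, against 11.10, 11.18 and 11.21 on day 2. Plin1, the coat protein that gates lipolysis, rose by 2.58 ± 0.12, and Bscl2, the droplet assembly protein seipin, by 2.48 ± 0.07. Fatty acid uptake and binding was more mixed, with 9 of 17 higher and 3 lower: Acot2, a mitochondrial acyl-CoA thioesterase, was at least 6.85-fold higher and Lrp1, a large lipoprotein receptor, fell by 1.86 ± 0.32. Acsl5, an acyl-CoA synthetase, fell by 0.65. Acot1, the cytosolic thioesterase, fell by 1.00 on the probe used here, and its probes were called in opposite directions.

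Cholesterol synthesis, uptake and sensing rose for 17 of 20 genes, with 1 lower and a median of 1.73, well above the 23.5% of all genes that rose. Insig1, which retains the SREBP precursors in the endoplasmic reticulum and is itself an SREBP target (chr5:28071412-28078662), was at 10.12, 9.93 and 10.05 on day 6, against 6.51, 6.22 and 6.12 on day 2, a rise of 3.75 ± 0.12 or 13.4-fold. Fdps, the farnesyl diphosphate synthase, was at 13.08, 13.04 and 13.03 on day 6, against 10.30, 10.22 and 10.25 on day 2, a rise of 2.80 ± 0.09. The replicates of each day lay close together for both genes. Tm7sf2, a sterol reductase, rose by 3.10 ± 0.22 and was detected on 2 of 3 day 2 arrays, and Nsdhl and Pmvk, enzymes of the sterol and mevalonate steps, rose by 2.21 and 2.20. Scap, the escort that carries SREBP to the Golgi, was the member that fell, by 0.47 ± 0.16, with an adjusted p of 0.0207. Without day 6 replicate 1 or day 2 replicate 2 or 3 its adjusted p was 0.0841, 0.0672 and 0.0899. Of the 15 promoters found for the 17 risen genes, 1 (6.67%) held the sterol element letters TCACNCCAC on either strand, against 1.22% of all promoters.

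Genes of mitochondrial fuel use rose to different extents. In mitochondrial fatty acid oxidation and ketone genes 20 of 21 were higher and 0 lower, with a median of 1.11, and in the citric acid cycle and pyruvate list 19 of 24 were higher and 1 lower, with a median of 0.84. The 58 respiratory chain and ATP synthase subunits had 35 higher, 0 lower and a median of 0.46, with only 4 at least 2-fold higher. Acads, the short-chain acyl-CoA dehydrogenase, was at 10.70, 10.63 and 10.67 on day 6, against 8.53, 8.56 and 8.65 on day 2, a rise of 2.09 ± 0.09. Crat, the carnitine acetyltransferase, rose by 2.00 ± 0.15, and Cs, citrate synthase, by 1.57 ± 0.10. Pcx, the pyruvate carboxylase that feeds citrate for fat synthesis, was at 11.01, 11.13 and 11.33 on day 6, against 9.42, 9.43 and 9.55 on day 2. The pair that controls pyruvate dehydrogenase moved oppositely, Pdk1, an inhibitory kinase, rising by 2.31 ± 0.14 and Pdp1, the activating phosphatase, falling by 1.41 ± 0.13. Sdhb and Uqcrc1, subunits of complexes II and III, had the largest differences among the chain's called members, 1.20 ± 0.11 and 1.14 ± 0.12.

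Breakdown of branched-chain amino acids, a carbon source for fat synthesis in adipocytes, rose for 17 of 21 genes, with 1 lower and a median of 1.62. Bcat2, the mitochondrial aminotransferase that starts the pathway, was at 12.34, 12.01 and 12.38 on day 6, against 8.92, 8.99 and 8.96 on day 2, a rise of 3.28 ± 0.15 or 9.74-fold. Its cytosolic counterpart Bcat1 was at 5.89, 5.63 and 5.44 on day 6, against 6.93, 7.04 and 7.01 on day 2, a difference of -1.34 ± 0.13. The mitochondrial and cytosolic forms of the same enzyme were thus called in opposite directions, each with separate groups. Dbt, a subunit of the branched-chain ketoacid dehydrogenase, rose by 2.72 ± 0.18. Mccc1, a subunit of methylcrotonyl-CoA carboxylase, rose by 2.57 ± 0.67, with 8.56, 10.47 and 9.68 on day 6 and 6.35, 7.43 and 7.21 on day 2. Here replicate 1 was the lowest on both days. Peroxisomal genes rose for 23 of 27, with 2 lower and a median of 1.13; Acaa1b, a peroxisomal thiolase, was at least 18.9-fold higher, Pxmp2, a channel of the peroxisomal membrane, rose by 3.05 ± 0.11, and Agps, of ether lipid synthesis, fell by 0.77 ± 0.22. The other lower member was Far1, of the same pathway, at -0.57, and its call was lost without day 6 replicate 2 (adjusted p = 0.109) and without day 2 replicate 1 (adjusted p = 0.111).

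Glycolytic and hypoxia-responsive genes were higher for 17 of 27 and lower for 5. Egln3, a prolyl hydroxylase of the oxygen-sensing pathway, was at 10.557, 10.999 and 10.741 on day 6, against 7.11, 7.58 and 7.42 on day 2, a rise of 3.40 ± 0.21. Hk1, a hexokinase, fell by 0.77 ± 0.16 to levels detected on 1 of 3 day 6 arrays. The other lower members were Hif1a, P4ha2, Pkm and Pfkp, a phosphofructokinase whose probes were called in opposite directions and averaged to -0.02 (adjusted p = 0.93). The call of Hif1a was lost without day 2 replicate 1 (adjusted p = 0.11). The call of Pkm was lost without any one of the 6 arrays (adjusted p = 0.0501 to 0.0792), and that of P4ha2 without any but day 2 replicate 1 (adjusted p = 0.0532 to 0.156). The 5 lower calls became 3 when any one of the 6 arrays was left out.

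Genes that answer to dexamethasone and to cyclic AMP included more lower than higher calls. Among glucocorticoid receptor targets 8 of 21 were lower (38.1%), 4 higher (19%) and 9 not past the threshold, with a median of -0.15. Among cyclic AMP-responsive and immediate early genes 11 of 21 were lower (52.4%), 3 higher (14.3%) and 7 not past it, with a median of -0.61. Of all genes 27.4% were lower and 23.5% higher. Tsc22d3, the leucine zipper protein GILZ, was at 11.05, 11.33 and 11.41 on day 6, against 12.44, 12.50 and 12.56 on day 2, a difference of -1.24 ± 0.15. Fkbp5, a co-chaperone of the glucocorticoid receptor, was at 10.15, 10.09 and 10.06 on day 6, against 11.22, 11.13 and 11.27 on day 2, a difference of -1.10 ± 0.10. Both are widely used reporters of glucocorticoid action, and neither had overlapping groups. They do not stand for the whole list. The 9 targets that did not pass included Per1 (0.24, adjusted p = 0.201), Sgk1 (-0.21, adjusted p = 0.156) and Mt1 (0.05, adjusted p = 0.614). Inhba, the activin A subunit, fell by 3.00 ± 0.29 and was detected on 1 of 3 day 6 arrays, and Junb and Sik1, an AP-1 factor and a kinase induced by cyclic AMP, fell by 1.95 and 1.66. The receptor targets that rose were Klf15, Pdk4, Hsd11b1 and Nfkbia, and the cyclic AMP-responsive genes that rose were Atf3, Rgs2 and Crem. In the insulin signalling and glucose uptake list 6 of 20 rose and 4 fell: beside Slc2a4, the kinase Akt2 rose by 1.82 ± 0.15, while the receptor Igf1r and the adaptor Irs2 fell by 1.16 ± 0.19 and 1.06 ± 0.27. The other lower members were Grb10, an adaptor that dampens the insulin receptor, at -0.52, and Pik3r1, the PI3K regulatory subunit, at -0.74. The call of Pik3r1 was lost without day 6 replicate 2 or 3 (adjusted p = 0.0517 and 0.0904) and without day 2 replicate 1 (adjusted p = 0.13), and averaging its probes gave an adjusted p of 0.119.

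Circadian clock genes were higher for 8 of 14 and lower for 2. Dbp, a clock output factor, was at 10.17, 10.26 and 10.19 on day 6, against 7.42, 7.30 and 7.35 on day 2, a rise of 2.85 ± 0.10, and its antagonist Nfil3 was at 9.63, 9.64 and 9.63 on day 6, against 10.71, 10.72 and 10.82 on day 2, a difference of -1.12 ± 0.08. These factors, which compete for the same promoter element, thus moved in opposite directions. Per2, a core clock repressor, was lower by 0.24 on the log2 scale, with adjusted p of 0.0539 to 0.175 when day 6 replicate 1, 2 or 3 or day 2 replicate 1 or 2 was left out, 0.0622 as a mean of its probes and 0.0829 with only days 2 and 6 in the fit. No source used here gives the time of day at which cells were taken. In the integrated stress response list 8 of 29 rose and 7 fell, and in the unfolded protein response list 6 of 20 rose and 6 fell. Trib3, a pseudokinase induced by that stress response, rose by 3.64 ± 0.22, and Ddit3, its inducer, by 2.66 ± 0.16, whereas the ER chaperone-related gene Creld2 fell by 0.99 ± 0.11. The medians of both lists were -0.02 and 0.01, close to that of all genes.

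Genes of the extracellular matrix were mostly lower. In the fibrillar and fibroblast matrix list 19 of 32 genes were lower and 2 higher, with a median of -0.67. Mgp, matrix Gla protein (chr6:136872435-136875823), was at 7.85, 7.60 and 7.94 on day 6, against 11.60, 11.33 and 11.45 on day 2, a difference of -3.66 ± 0.14 or 12.7-fold. Tnc, tenascin C, and Mmp2, gelatinase A, fell by 3.04 ± 0.16 and 2.32 ± 0.11. Col1a1, a chain of fibrillar collagen, fell less. It was at 9.91, 9.43 and 10.12 on day 6, against 10.35, 10.33 and 10.70 on day 2 (-0.64 ± 0.19, adjusted p = 0.00757), and without day 6 replicate 2 the difference was -0.44 with an adjusted p of 0.0651. Of the members that rose, Thbs2, the matricellular thrombospondin 2, rose by 1.32 ± 0.26, and Ccn2, which was undetected on day 2, was at least 1.08-fold higher. The call of Ccn2 was lost without day 6 replicate 3 (adjusted p = 0.124) and without day 2 replicate 1 or 3 (adjusted p = 0.0591 and 0.0833). It was also lost on the authors' normalized table with values floored at 16 (0.10 on the log2 scale, adjusted p = 0.72, against 0.37). The same held without background correction (0.10, adjusted p = 0.0598) and with an offset of 50 (0.16, adjusted p = 0.0746). Basement membrane genes, which fat cells build around themselves, split into 5 higher and 8 lower of 18, with Lamb3, a laminin chain detected on 1 of 3 day 2 arrays, rising by 2.49 ± 0.14 and Col4a1, a type IV collagen chain, falling by 1.32 ± 0.13. In the actin and contractile list 12 of 24 fell and 4 rose; Actn1, an actin crosslinker, fell by 1.25 and Myh10, a non-muscle myosin, rose by 1.74 ± 0.17.

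Secreted factors of fat cells rose for 13 of 24 genes and fell for 5. Apoc1, an apolipoprotein (chr7:19689480-19692659), showed the largest rise of all measured genes, at 13.56, 13.58 and 13.42 on day 6, against 5.86, 5.75 and 5.77 on day 2, a difference of 7.72 ± 0.57 or 211-fold (adjusted p = 3.67e-10). Its neighbour Apoc4 was at least 43.8-fold higher, with 10.23, 10.26 and 10.32 on day 6 and no detection on day 2. Apoe, which lies beside them on chromosome 7, rose by 1.11 ± 0.14. Apoc3, on chromosome 9, was at least 37.9-fold higher. Rarres2, the chemokine-like adipokine chemerin, was at 12.74, 12.70 and 12.70 on day 6, against 9.09, 9.14 and 9.02 on day 2, and Nrg4, a neuregulin of fat, rose by 2.36 ± 0.14 with detection on 1 of 3 day 2 arrays. On the falling side stood Inhba, Fst, its binding partner follistatin, at -2.08 ± 0.28, and Retnla, a resistin-like protein, at 6.09, 6.31 and 6.28 on day 6, against 8.38, 8.30 and 8.22 on day 2 (-2.07 ± 0.08). Resistin and its relative thus moved oppositely. Igfbp5 and Igfbp4, which bind insulin-like growth factors, were the other lower members, at least 1.40-fold and by 0.32 on the log2 scale.

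Several of the largest falls were in genes outside the cell cycle lists. Pip, prolactin-induced protein (chr6:41847549-41852065), was at 4.50, 4.36 and 4.29 on day 6, where no array detected it, against 11.87, 11.73 and 11.62 on day 2, at least 116-fold lower. Lcn2, the iron-siderophore binding protein lipocalin 2, was at 7.01, 6.74 and 6.92 on day 6, against 11.52, 11.56 and 11.48 on day 2, a difference of -4.63 ± 0.17 or 24.7-fold. Aldh3a1, an aldehyde dehydrogenase of the cornea and stomach in mice, fell by 4.03 ± 0.12. Of the keratin genes, Krt13 was at least 6.49-fold lower, and Krt15 fell by 3.51 ± 0.15 to detection on 1 of 3 day 6 arrays. Within the acute phase and inflammation list 11 of 27 fell and 8 rose. Cxcl1, a neutrophil chemokine, fell by 2.66 ± 0.11 and Serpina3n, a protease inhibitor, by 1.58, while Hp, haptoglobin, was at 12.75, 12.57 and 12.73 on day 6, against 8.40, 8.13 and 8.03 on day 2, a rise of 4.49 ± 0.17, and Orm1, orosomucoid, rose by 3.19 ± 0.13. Acute phase proteins were therefore found at both ends of the comparison.

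Further rises in the top group came from enzymes and membrane proteins. Cox8b, the tissue-restricted subunit of cytochrome c oxidase found in muscle and brown fat, was at 10.90, 10.78 and 10.80 on day 6 and undetected on day 2, at least 64.3-fold higher. Of 21 brown and beige fat markers with a probe, only 11 passed the detection filter, and of these 7 rose and 0 fell. Cox7a1 rose by 3.33 ± 0.30. Ucp1, the uncoupling protein that defines brown fat, was on the array but among those that did not pass the filter. Selenbp1, a selenium-binding protein with methanethiol oxidase activity, was at least 34.8-fold higher and Rgr, an opsin of the retina, at least 37.8-fold. Gpt, alanine aminotransferase, rose by 4.57 ± 0.11, Mrap, which carries the ACTH receptor to the cell surface, by 4.16 ± 0.09, and Cdsn, an adhesion protein of cornified skin, by 4.87 ± 0.09. Aoc3, the semicarbazide-sensitive amine oxidase of adipocytes, rose by 4.31 ± 0.59, with 9.60, 11.17 and 10.34 on day 6 and 5.48, 6.46 and 6.24 on day 2. Replicate 1 was lowest and replicate 2 highest on both days.

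Antioxidant and detoxification genes were higher for 23 of 43 and lower for 8, with a median of 0.48. Cat, catalase, and Mgst2, a microsomal glutathione transferase, rose by 2.03 ± 0.09 and 2.41 ± 0.19, and Cyp1b1, a cytochrome P450, fell by 1.76 ± 0.28. Lysosomal proton pump and cathepsin genes rose for 15 of 29 and fell for 3, with 1 rise of at least 2-fold. Ctsk, the collagen-degrading cathepsin K, fell by 1.32 ± 0.14, and Gusb, beta-glucuronidase, by 0.53. Lamp2, a lysosomal membrane protein, fell by 0.35 on the probe used here, and the mean of its probes, which were called in opposite directions, differed by 0.06 with an adjusted p of 0.432. Complement genes rose for 4 of 9 and fell for 0, namely Cd55 by 1.99 ± 0.22, C4b by 1.76 ± 0.33, Clu by 1.04 and Cd59a by 0.73.

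Interferon-stimulated genes, which cells switch on in response to viral nucleic acids or interferon, rose for 13 of 28 and fell for 0, with a median of 0.53. Ubd, an inflammation-induced ubiquitin-like protein also called FAT10, which stands outside the list, was at 11.32, 11.36 and 11.38 on day 6, against 5.69, 5.86 and 5.26 on day 2, a rise of 5.75 ± 0.50 or 53.9-fold. Gbp2, a guanylate-binding GTPase, was at 9.27, 9.13 and 9.13 on day 6, against 5.40, 5.19 and 5.11 on day 2, a rise of 3.94 ± 0.28. Ifi27l2a was at 9.62, 10.40 and 10.34 on day 6, against 6.71, 7.20 and 7.14 on day 2, a rise of 3.10 ± 0.83. All 3 showed a clear gap between the days beside large SEs, since the spread is shared over all days and the arrays of day 4 disagreed. The SD over the 3 day 6 arrays was 0.03 for Ubd, 0.08 for Gbp2 and 0.43 for Ifi27l2a, and over the 3 day 4 arrays it was 1.84, 1.01 and 2.98.

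The comparison passes over day 4, and the whole change can be split there into an early step, day 4 minus day 2, and a late step, day 6 minus day 4. Both steps use the same day 4 arrays, of which replicate 2 lay apart from the others. The early step had 3958 calls (41.4%) and the late step 2805 (29.3%). Of the 4872 genes called between days 6 and 2, 3726 (76.5%) had a day 4 mean between the other means, 819 (16.8%) had passed the day 6 mean already and 327 (6.71%) lay beyond the day 2 mean. The steps, taken with their signs, differed at an adjusted p under 0.05 for 2110 genes (22.1%), and for 1885 (19.7%) without day 4 replicate 2. A gene that turned back at day 4 can count among these even where its steps were alike in size. Among the 264 named genes called over the interval, 91 had the larger step early, 29 had it late and 144 were not shown to differ. Without day 4 replicate 2 these were 79, 43 and 142. Many named genes were chosen for large changes, and the early and late shares were not counted over all called genes. These counts therefore only describe the named genes.

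The lists differed in their timing. For the 17 adipocyte markers the median early step was 1.44 and the median late step 0.52, and for the respiratory chain they were 0.51 and -0.03. Mitosis genes moved by -1.02 and then -1.15, and DNA replication genes by -0.96 and -0.93. The cell cycle lists thus fell over both steps, while the larger part of the marker rise was in the early one. Thrsp rose by 5.48 and then 1.56, and Ces1d by 5.08 and then 1.00, both with steps that differed (adjusted p = 5.8e-09 and 6.5e-13). Lcn2 changed by -0.59 and then -4.04. Pip changed by -1.23 in the early step, was detected on all 3 day 4 arrays and on no day 6 array. Matrix genes had a median of -0.97 and then 0.11, and Col1a1 had steps of -1.69 and 1.05. Retnla was higher on day 4 than on either end, with steps of 1.77 and -3.85. Elovl3, an elongase of very long fatty acids, was undetected on day 2 and detected on all 3 day 4 arrays, and its late step was -1.06. The day 4 mean of Cebpa was also above its day 6 mean, with steps of 1.41 and then -0.26. Its late step is only somewhat larger than the SE of 0.16 of its whole change, and no test of that step is given here. An overshoot is therefore not shown.

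For the genes on which day 4 replicate 2 bears, the split depended on that array. The whole change is a difference of the day 6 and day 2 means, so leaving a day 4 array out of the fit cannot alter its size. Its SE and adjusted p can change, through the spread shared over all days. The normalization, the detection filter and the choice of probe used all 24 arrays and were not repeated without that array. Apoc1 had steps of 3.73 and 4.00 with all arrays and 2.49 and 5.24 without the array, Ubd 1.87 and 3.88 against 0.81 and 4.94, and Gbp2 1.36 and 2.58 against 0.79 and 3.15. The median steps of the interferon list were 0.04 and 0.40 with all arrays and -0.18 and 0.69 without it. The difference between steps passed for 4 of its 28 genes with all arrays and for 12 without that array.

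**Figure D4:**
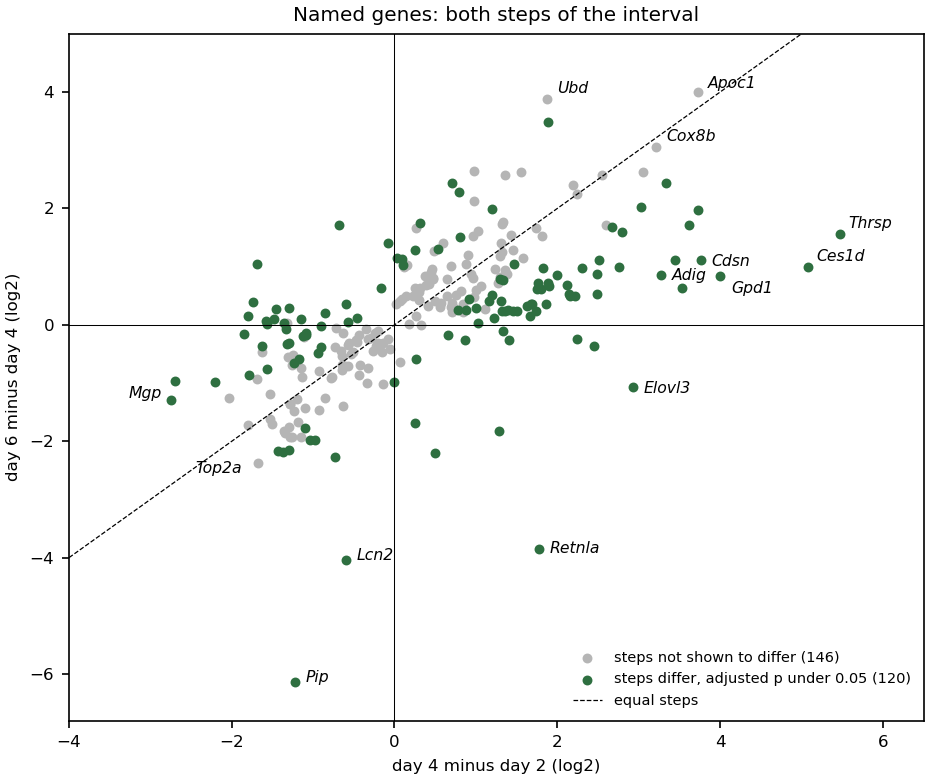
Each point is 1 of 266 named genes, with its day 4 minus day 2 difference (log2) across and its day 6 minus day 4 difference (log2) up the page. Green points are the 120 genes whose steps differed at an adjusted p under 0.05, grey points the 146 not shown to differ, and the dashed line marks equal steps. Both axes use the same day 4 arrays, so the position of a point moves along a falling diagonal with any error in day 4.

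Within the full course, day 2 was an extreme for many of these genes. Of the 2622 genes called lower on day 6, 1350 had their highest day mean of all 8 days on day 2, and of the 2250 called higher, 952 had their lowest on day 2. Day 6 had the highest day mean for 756 of the risen genes and the lowest for 674 of the fallen ones. Calling a gene by its difference between days 2 and 6 itself favours these days as extremes. The share over all genes was not counted, so these counts only describe the called genes. The mitosis list was at -0.77 on day 0 relative to day 2, at -2.13 on day 6 and at -2.22 on day 18. The interferon list was at 1.62 on day 0, 0.53 on day 6 and 2.09 on day 18, and the fibroblast matrix list at 1.24, -0.67 and 0.11. These last lists were higher on day 0 and day 18 than on either day of the interval. Branched-chain amino acid breakdown peaked on day 6, with 1.62 there and 0.98 on day 18.

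**Figure D5:**
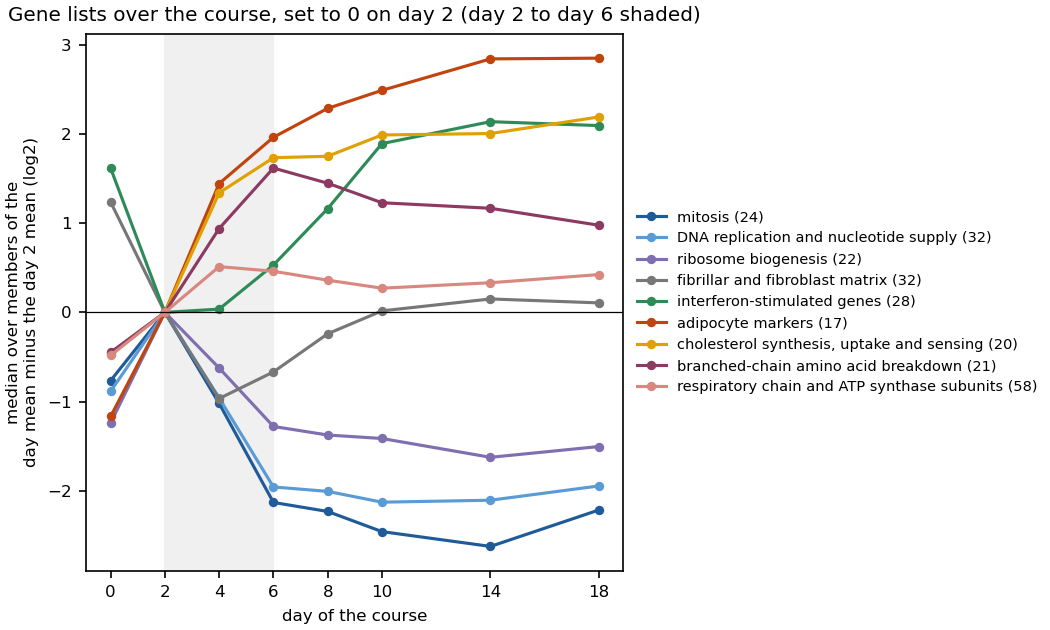
Median over the members of 9 gene lists of the day mean minus the day 2 mean (log2) on days 0, 2, 4, 6, 8, 10, 14 and 18, with the number of genes in brackets and the interval from day 2 to day 6 shaded. The mitosis, DNA replication and ribosome biogenesis lists go down within the shaded interval and stay down, the adipocyte marker and cholesterol lists go up and stay up, and the interferon list is at 1.62 on day 0 and 0.53 on day 6.

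Markers of endothelial cells and leukocytes gave little signal on either day, while some markers of muscle, bone and cartilage, and neural and epithelial cells were detected. All 9 endothelial markers with a probe, and 9 of 11 macrophage and leukocyte markers, were undetected on all 6 arrays, among them Pecam1, Cdh5, Ptprc and Itgam. Cd14, which fibroblasts also express, was detected on all arrays and did not pass the threshold. Of 11 skeletal muscle markers 5 were undetected throughout, including Myod1, Myf5 and Pax7, while Des, the intermediate filament desmin, rose by 2.74 ± 0.10, with 7.75, 7.77 and 7.76 on day 6, against 4.86, 5.09 and 5.10 on day 2. Acta1, skeletal actin, was at least 1.19-fold higher, and Tnnt3 and Mylpf, a troponin and a myosin light chain, were lower by 0.30 and 0.31 on the log2 scale at levels near the floor. The call of Acta1 was lost without background correction (adjusted p = 0.0804) and on the authors' normalized table with values floored at 16 (adjusted p = 0.114). That of Tnnt3 was lost without day 6 replicate 2 or 3 or day 2 replicate 3 (adjusted p = 0.106, 0.0547 and 0.18), and that of Mylpf without any array but day 2 replicate 1 (adjusted p = 0.0536 to 0.141). The summed intensity of the 6 muscle markers tested was 349.0 to 364.6 on day 6, against 158.4 to 171.3 on day 2. Most of that rise was in Des, and its part in the other results was not tested. Bone and cartilage markers were undetected for 6 of 11, and the 5 tested summed to 171.7 to 205.1 on day 6, against 237.8 to 269.1 on day 2. Of these Sox9 fell by 1.42, Alpl and Sp7 were higher by 0.49 and 0.42, and Sp7 was detected on no array. The call of Sp7 was lost without any array but day 6 replicate 2 (adjusted p = 0.0807 to 0.128), and that of Alpl without day 6 replicate 3 (adjusted p = 0.0526). Neural and epithelial markers were undetected for 5 of 11, and the 6 tested summed to 426.9 to 455.6 on day 6, against 472.7 to 497.9 on day 2. Krt14, at a mean of 7.84 on day 6 and 8.38 on day 2, fell by 0.54, and Tubb3 fell by 0.32. Krt8 rose by 0.60, and Krt18, undetected on day 2, was at least 2.03-fold higher. The call of Tubb3 was lost without day 6 replicate 1 or day 2 replicate 3 (adjusted p = 0.059 and 0.0784). The 3 macrophage markers tested summed to 91.8 to 105.0 on day 6, against 105.3 to 107.5 on day 2. The adipocyte label that day 2 shares with day 6 stood beside a marker level well below that of day 6, as given above.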

How the data were processed

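The samples were 24 RNA preparations of 3T3-L1 cells hybridised to Illumina beadchips, 3 on each of 8 days, of which the 6 arrays of days 6 and 2 form the comparison. The authors deposited probe intensity on a linear scale that was neither background-subtracted nor normalized between arrays, for 25697 probes. Beside each deposited intensity stands a detection p-value, in steps of 1 in 798. GenomeStudio 2011.1 is named per the submitters' processing notes, without its role. A second deposited table of background-subtracted, normalized intensity was used as an alternative setting. Its values under 16 were set to 16 here before the log2 scale was taken, which flattens differences between dim probes.

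Intensities were background-corrected with negative controls inferred from the detection p-values, quantile normalized and put on a log2 scale by neqc of limma 3.58.1 in R 4.3.3, with an offset of 16. Detection at p under 0.05 on 3 or more of the 24 arrays left 14160 probes. The brightest probe on average stood for each of 9558 genes. Of all probes 23978 carried 1 gene symbol and 1719 none, and 23962 matched RefSeq of build GRCm38.p6 by Entrez identifier, from which symbols and positions come. All 24 arrays entered 1 limma model of day means (16 residual degrees of freedom), in which day 6 minus day 2, both steps at day 4 and the difference of the steps were moderated two-sided contrasts, adjusted by Benjamini-Hochberg over all genes. The fit was run on simulated data with errors drawn independently for each array. That setting leaves out the shared deviations of same-numbered arrays given below, so it cannot show the error rate for these data. The 3 arrays a day and the signal above background limit the precision.

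The comparison, the gene lists and the named genes were chosen with earlier results of these data known. Named genes were the 15 largest measured rises and falls and the 5 largest bounds each way among called genes whose groups do not overlap, up to 5 called members of each list in its majority direction and up to 3 in the other, and a fixed set of adipocyte and cell cycle genes. Anln, Apoe, Cd14, Fkbp5, Grb10, Igfbp4, Igfbp5, Klf4, Mt1, Nfkbia, P4ha2, Per1, Pkm, Plk1, Pold2, Serpina3n, Sgk1 and the histone genes fall outside that rule and were chosen after their values were seen. Lists are described by counts and medians, and members without a detected probe were not tested. The labels number the replicates alike on each day, and the deviations of same-numbered day 6 and day 2 arrays from their day means correlated at 0.723, 0.564 and 0.432 across genes. Same-numbered arrays thus shared deviations, and no source used here says why. The main fit leaves the replicate number out, and the replicate block takes it in. The alternatives tried were the background correction, the normalization, the detection filter, the probe per gene, the arrays in the fit, the replicate block and leaving out single arrays. No source used here names the chip of an array.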

Additional observations from a re-analysis of the deposited data

How the results depend on the processing

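Across 18 alternatives the number of genes called ranged from 4252 to 5793, beside 4872. No gene called here was called in the opposite direction, except 4 when the probe was chosen on the 6 arrays and 3 when probes were averaged. The replicate block gave 5793 calls (2665 higher, 3128 lower), which include all 4872. Among the named genes followed through the alternatives, it changed the calls of Cdkn1b (adjusted p = 0.0372) and Anln (0.0115). In the list of glucocorticoid receptor targets it gave 6 higher and 9 lower calls, beside 4 and 8. Leaving out single arrays gave 4477 to 4604 calls, and leaving out replicate 1 of both days, chosen after seeing the data, gave 4252. Scaling by medians in place of quantiles moved the median of all genes from -0.03 to -0.09 and the share of calls that were higher from 46.2% to 38.8%. Without background correction 781 genes were called at least 2-fold changed (411 higher, 370 lower), against 1540 (780 higher, 760 lower); by construction background left in the signal compresses folds. The lower calls of the glycolysis and hypoxia list numbered 3 to 3 without single arrays and 2 without replicate 1 of both days, against 5; fewer samples were used in these fits. Lamp2 changed sign to 0.061 when probes were averaged, against -0.35, and its probes were called in opposite directions. For named genes, 5045 values kept their side of the threshold, 123 were no longer past it and 4 came past it. Values past the threshold in both fits also kept their direction. Among values past it in neither fit, changes of sign were not counted. The chip as a block was not run, since the files name no chip. Genes near the detection floor on one day, such as Cd36 and Ifit3, have the least signal to support their size.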

Other observations

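The genes of the replication histones, which package newly made DNA and whose transcripts normally end in a stem-loop in place of a poly(A) tail, did not move as a block. They were looked at after their values had been seen, by symbol, and 40 were tested: 16 were higher on day 6, 15 lower and 9 did not pass the threshold, beside 23.5% and 27.4% of all genes. Of 12 H2A genes 9 fell and 1 rose, with a median difference of -3.13, and 5 of 6 H3 genes fell. Of 11 H2B genes 9 rose and 1 fell, with a median of 1.13, and 5 of 9 H4 genes rose and 0 fell. H2bc18, counted as a rise, and H3c14, counted as a fall, each have probes called in opposite directions, and neither passed as a mean of its probes (adjusted p = 0.425 and 0.215). H2ac10 was at 8.76, 9.24 and 8.54 on day 6, against 11.99, 12.10 and 12.03 on day 2, a fall of 3.19 ± 0.18 on the log2 scale (SE; limma adjusted p = 5.61e-12). H2bc9 was at 10.40, 10.30 and 10.51 on day 6, against 9.30, 9.05 and 9.17 on day 2, a rise of 1.23 ± 0.12, and H4c8 was at 11.13, 11.35 and 11.31 on day 6, against 8.498, 8.565 and 8.627 on day 2, a rise of 2.70 ± 0.09. Histone gene copies are nearly identical, so probes within a family may read the same transcripts, and the copies are not independent.

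Neighbouring genes within that cluster on chromosome 13 showed the same split. H2ac12 (chr13:22035122-22035643) was at 8.25, 8.04 and 7.69 on day 6, against 11.29, 11.12 and 11.17 on day 2, whereas H2bc12 (chr13:22035821-22036320), which lies next to it, was at 9.76, 9.66 and 9.80 on day 6, against 8.54, 8.55 and 8.82 on day 2. Of the 3 H2A genes on chromosome 3, H2ac18 rose by 1.39 ± 0.09, and H2ac20 and H2ac21 fell by 1.43 ± 0.10 and 2.03 ± 0.23. Histone mRNA without a poly(A) tail and with one were not told apart by these files, and the cause of the split was not tested.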
